A study of Mus musculus with 6 samples.

Results

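The cells described here are spinal cord myeloid cells in which at least 2 of the 5 genes Arg1, F10, AA467197, Clec4n and Plac8 had a value above 0. They were chosen by a rule on the deposited values and not by a deposited annotation. A cell had to reach a sum of at least 8 over the myeloid genes C1qa, Ctss and Tyrobp, to stay under 3 over the homeostatic microglia genes P2ry12, Tmem119, Siglech and Cx3cr1, and to reach at least 10 for Apoe. Of 13614 cells, 11481 met the first limit, 9119 the first and the second, and 8279 all 3. Among these, 836 cells held at least 2 of the 5 genes and are called selected cells (the members), which is 6.14% of all cells (exact binomial 95% interval 5.74 to 6.56%) and 10.1% of the 8279. The other 7443 cells, with fewer than 2 of the 5 genes, are the comparison cells.

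The study profiled spinal cord cells of Nd6 and WT mice by droplet-based scRNA-seq. In Nd6 mice a mitochondrial gene for a complex I subunit, mt-Nd6, holds a point mutation, and EAE is an inflammatory disease of the central nervous system that was induced by immunization with a MOG peptide. There were 2 libraries of Nd6 EAE mice, 1 library of Nd6 control mice that were not immunized, 2 libraries of WT EAE mice and 1 library of WT control mice. EAE mice were taken on day 30 after immunization, and the methods give females of 8 to 20 weeks for EAE induction and mice of both sexes as healthy controls. All mice were perfused with the transcription inhibitors actinomycin D and triptolide, and the tissue was digested in their presence. The number of mice behind a library is not given in the sources used here. The mutation lies in the mitochondrial DNA and is not restricted to microglia.

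Cell names carry a barcode and 1 of 6 numbers, and no source used here ties a number to a library. Cells with the same number form a set, and the 6 sets are called A to F, from the most to the fewest cells (4633, 3995, 1664, 1309, 1204 and 809). The table was treated as 1 pooled sample, so Nd6 and WT mice and EAE and control mice were not compared, no p-value was computed, and no value has a replicate error. Values are whole numbers on a scale that the sources do not describe, with totals per cell between 687 and 1578 (median 962), and the depth of a cell is unknown. Intervals are exact binomial (Clopper-Pearson) intervals at 95% over cells and cover counting error only. Of the barcodes, 18 occurred in more than 1 set, and 2 selected cells and 24 comparison cells carried such a barcode.

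Arg1 encodes arginase 1, which turns arginine into ornithine and urea and competes with nitric oxide synthase for arginine, and it is widely used as a marker of alternatively activated macrophages. F10 encodes coagulation factor X, the protease precursor at which both branches of the clotting cascade meet, made mainly by the liver and also by macrophages. Clec4n encodes dectin-2, a C-type lectin receptor for fungal mannans that signals through the Fc receptor gamma chain. Plac8 encodes a small cysteine-rich protein of myeloid and lymphoid cells and serves as a monocyte marker. AA467197, also known as Nmes1, encodes a small mitochondrial protein related to the complex IV subunit Ndufa4. In EAE, monocytes enter the spinal cord from the blood and become macrophages there, beside the resident microglia, and both can take up myelin, present antigen and secrete cytokines.

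Promoter windows of 3 of the 5 genes are shown because these genes were selected together and their start regions can be compared. They are the 250 bases before the annotated start, on the gene's strand, from the RefSeq promoter table for GRCm38.p6, and capitals mark matches on either strand to TGANTCA (AP-1), GAGGAA (PU.1), TTC and GAA set 4 bases apart (STAT6) and ACGTG (hypoxia response). The F10 window lies at chr8:13037058-13037307 on the plus strand, the AA467197 window at chr2:122637637-122637886 on the plus strand, and the windows of 2 Plac8 starts at chr5:100572206-100572455 and chr5:100563097-100563346 on the minus strand. The table holds no window for Arg1 and Clec4n.
F10: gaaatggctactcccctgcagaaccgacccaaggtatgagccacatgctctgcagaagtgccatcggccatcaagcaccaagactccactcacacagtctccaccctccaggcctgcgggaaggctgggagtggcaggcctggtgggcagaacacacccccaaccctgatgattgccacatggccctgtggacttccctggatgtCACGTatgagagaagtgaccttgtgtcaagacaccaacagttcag
AA467197: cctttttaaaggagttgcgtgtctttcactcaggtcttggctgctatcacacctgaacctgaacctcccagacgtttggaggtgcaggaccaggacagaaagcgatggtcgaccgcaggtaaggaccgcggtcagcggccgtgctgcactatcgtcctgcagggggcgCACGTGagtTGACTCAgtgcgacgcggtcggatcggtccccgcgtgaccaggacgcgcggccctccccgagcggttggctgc
Plac8 start 1: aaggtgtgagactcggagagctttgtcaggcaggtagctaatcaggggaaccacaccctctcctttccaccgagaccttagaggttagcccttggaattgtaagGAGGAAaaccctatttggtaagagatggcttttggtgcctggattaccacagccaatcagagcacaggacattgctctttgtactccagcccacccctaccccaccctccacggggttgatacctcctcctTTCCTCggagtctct
Plac8 start 2: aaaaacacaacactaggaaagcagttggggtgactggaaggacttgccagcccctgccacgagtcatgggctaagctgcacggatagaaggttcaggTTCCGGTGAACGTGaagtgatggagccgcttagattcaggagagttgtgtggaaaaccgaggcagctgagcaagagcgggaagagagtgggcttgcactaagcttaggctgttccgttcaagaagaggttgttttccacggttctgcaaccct
None of these letter runs was shared by all 4 windows. ACGTG was found in the F10 window (bases -45 to -41 from the start), in the AA467197 window (an overlapping pair from -82 to -77) and in the window of the second Plac8 start (-144 to -140), where it overlaps the STAT6 match by 1 base. Of all 32851 windows in the table, 16.6% held it. The AP-1 match stood in the AA467197 window only (-73 to -67; 6.75% of all windows), the 2 PU.1 matches stood in the first Plac8 window (-146 to -141 and -15 to -10; 23.3% of all windows), and the STAT6 match stood in the second Plac8 window (-153 to -144; 5.85% of all windows). A match describes the letters and not binding of a factor.

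Nearly all selected cells came from 1 set. Set B held 812 of the 836 (97.1%, 95.8 to 98.2%), set A 21, set F 2, set C 1, and sets D and E none. As a share of the cells that met the first 3 limits, selected cells made up 29.1% of 2793 cells in set B (27.4 to 30.8%), against 0.550% of 3818 in set A (0.341 to 0.840%), 0.431% of 464 in set F and 0.0844% of 1185 in set C. Sets D and E had only 13 and 6 such cells, so a share of up to 24.7% in set D and 45.9% in set E is allowed. Of the 2793 cells of set B, 932 held none of the 5 genes, 1049 held 1, 596 held 2, 186 held 3, 29 held 4 and 1 held all 5. Outside the first 3 limits, 156 more cells held at least 2 of the genes. Of these, 148 (94.9%) were again in set B, 77 were marked as microglia by the homeostatic genes, 66 had a myeloid sum under 8 and 13 had Apoe under 10. The names do not give the library of set B. The paper's count of WT cells equals the cells of sets A, C and E together. Its count of Nd6 cells equals those of sets B, D and F together, and no other split of the 6 sets gives these counts. Whether set B differs from the other sets by genotype, disease state or handling cannot be told apart, because 1 set held nearly all selected cells.

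**Figure D1:**
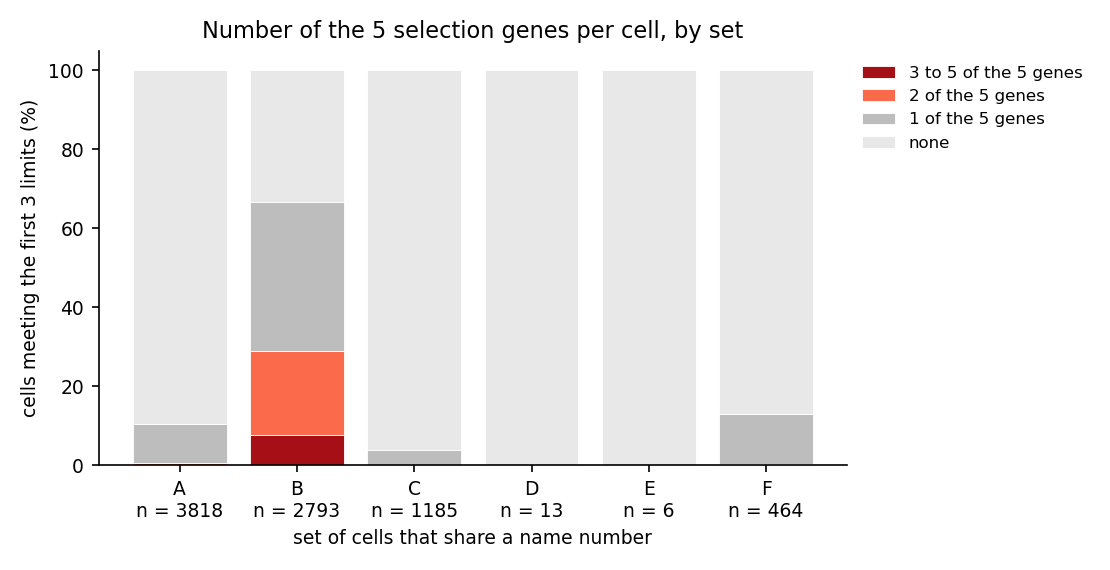
Stacked bars give, for each set of cells that share a name number, the share (%) of the cells meeting the first 3 limits that held 3 to 5, 2, 1 or none of the 5 genes, with the number of cells under each bar. In set B 29.1% of cells held at least 2 of the genes, against 0.550% in set A, 0.431% in set F, 0.0844% in set C and none of the 13 and 6 cells of sets D and E.

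The 5 genes were chosen for this difference, so their levels describe the selection and are no finding. Arg1 was above 0 in 62.3% of the 812 selected cells of set B (58.9 to 65.7%), with a mean value of 0.865 (SD over cells 1.16, highest 13), and in 15.8% of the 1981 comparison cells of that set (mean 0.204). AA467197 had the highest share, 72.8% of selected cells (69.6 to 75.8%; mean 1.06, SD over cells 1.03, highest 11) against 22.2% of comparison cells (mean 0.299). Plac8 was above 0 in 42.4% of selected and 7.07% of comparison cells, with means of 0.490 and 0.0808. F10 was above 0 in 27.8% of selected and 4.54% of comparison cells, with means of 0.324 and 0.0475. Clec4n was above 0 in 25.1% of selected and 3.38% of comparison cells, with means of 0.283 and 0.0404. The median value of a selected cell of set B was 1 for Arg1 and AA467197 and 0 for the other 3 genes, so most selected cells rest on low values of a pair of genes.

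Selected cells of the other sets were few. Of the 24 such cells, 83.3% had AA467197 (62.6 to 95.3%) and 75.0% Plac8 (53.3 to 90.2%), whereas 12.5% had Arg1 (2.66 to 32.4%), 25.0% Clec4n and 4.17% F10. These shares describe cells chosen for holding such genes, and among all cells of the other sets that met the first 3 limits Arg1 was above 0 in 0.310%, Plac8 in 2.79% and AA467197 in 4.63%. These cells make up 24 of the 836, so every statement on the selected cells as a whole is a statement on set B.

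The 5 genes were also seen in cells of set B with a low myeloid sum. This class is set by limits on the values alone, and its cell types were not tested. Of 77 cells of set B that held at least 3 markers of another cell type and a myeloid sum under 3, called non-myeloid cells, 10.4% had Arg1 (4.59 to 19.5%), 11.7% AA467197, 6.49% Clec4n, 2.60% F10 and 2.60% Plac8. Their median was 634 genes per cell, against 612.5 in the selected and 519 in the comparison cells of that set. The Arg1 share of the comparison cells (15.8%, 14.2 to 17.4%) overlaps that of the non-myeloid cells, as do their intervals for the other 4 genes (AA467197 20.4 to 24.1% against 5.49 to 21.0%). The rule lowers the shares of comparison cells, and 77 cells give wide intervals, so the overlap cannot show a background level. Among all 2793 cells of set B meeting the first 3 limits, Arg1 was above 0 in 29.3% (27.6 to 31.0%) and AA467197 in 36.9% (35.1 to 38.7%). Plac8 had 17.3% (15.9 to 18.8%) and F10 11.3% (10.16 to 12.55%). The intervals of these genes lay above the non-myeloid ones, and that of Clec4n (9.70%, 8.63 to 10.9%) overlapped. In selected cells each of the 5 shares lay above the non-myeloid interval, as the rule requires. In the other sets, none of 523 non-myeloid cells had Arg1 or F10, which allows a share of up to 0.703%, and 0.574% had AA467197. Of 440 microglia-marked cells of set B (myeloid sum of at least 8, homeostatic sum of at least 3), 21.1% had Arg1 (17.4 to 25.3%), 23.9% AA467197, 13.2% Plac8, 7.05% F10 and 6.36% Clec4n, against 0.416%, 1.25%, 0.676%, 0.0520% and 0.364% of the 1922 microglia-marked cells of the other sets. In set B the genes were thus detected in myeloid, microglia-marked and non-myeloid cells, and the difference between sets was seen in each of these classes for Arg1, AA467197 and Clec4n, whose intervals did not overlap. The part of free RNA was not tested.

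**Figure D2:**
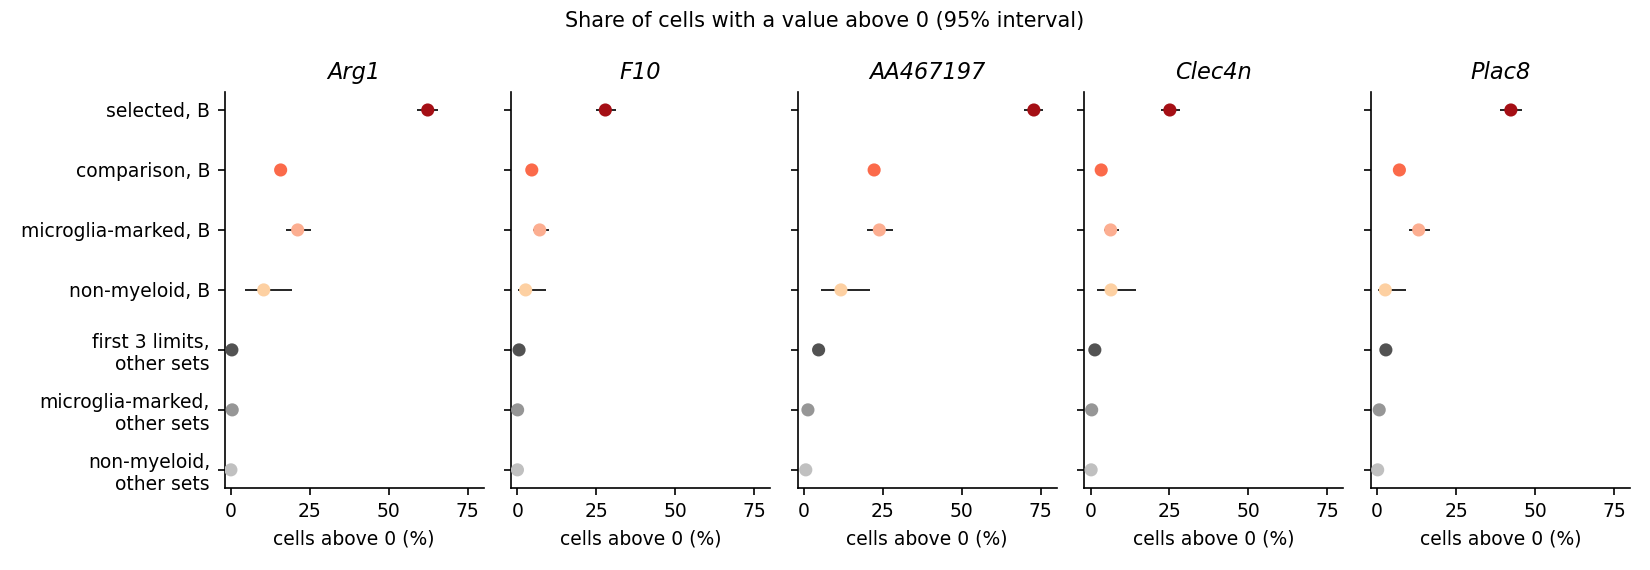
Each panel gives 1 of the 5 genes, and each point is the share (%) of cells of a class with a value above 0, with its exact 95% interval as a line. Selected cells of set B lie highest by construction (Arg1 62.3%), comparison, microglia-marked and non-myeloid cells of set B follow (Arg1 15.8%, 21.1% and 10.4%), and the 3 classes drawn for the other sets (all cells meeting the first 3 limits, microglia-marked and non-myeloid cells) lie at or below 4.63%.

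Among cells of set B that met the first 3 limits, each of the 5 genes was found a little more often where another of them was found, a description that rests on sparse values and did not hold for each pair at like numbers of genes per cell. Arg1 was above 0 in 34.5% of cells with F10 and in 28.6% of cells without it, in 32.5% with and 27.4% without AA467197, in 32.5% with and 29.0% without Clec4n, and in 32.2% with and 28.7% without Plac8. The widest gap was for AA467197, found in 47.2% of cells with Clec4n and in 35.8% of cells without it. Among cells with few, intermediate and many genes the AA467197 shares with and without Clec4n were 42.1% and 25.4%, 41.8% and 36.6%, and 53.7% and 46.1%. Other pairs lost or turned the order: F10 was found in 6.56% of cells with and 7.93% of cells without AA467197 among cells with few genes, 12.2% and 12.7% at intermediate numbers, and 16.1% and 11.9% among cells with many. Arg1 was found in 20.1% with and 20.6% without AA467197 among cells with few genes, and at intermediate numbers in 30.8% with and 31.6% without Clec4n and 31.4% with and 31.5% without Plac8. Over all these cells, F10 was found in 17.3% of cells with Clec4n and in 10.7% without. Of the 836 selected cells, 620 (74.2%) held exactly 2 of the genes, 186 (22.2%) held 3, 29 (3.47%) held 4 and 1 (0.120%) held all 5. The commonest pair was Arg1 with AA467197, found in 337 selected cells and as the sole pair in 202 (32.6% of those with 2 genes), followed by AA467197 with Plac8 as the sole pair in 122 (19.7%).

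Selected cells held more genes than comparison cells. The rule favours this, because it asks for at least 2 of the 5 genes above 0, so the difference describes the selection. In set B the median was 612.5 genes and a total of 989.5 in selected cells, against 519 genes and a total of 863 in comparison cells, and it was 484, 544, 602 and 636 genes in cells with none, 1, 2 and at least 3 of the 5 genes. When the cells of set B that met the first 3 limits were ordered by genes per cell and split into 10 groups of like size, 12.6% of the lowest group (209 to 372 genes; 8.88 to 17.2%) and 47.1% of the highest group (751 to 1240 genes; 41.2 to 53.2%) were selected cells. The share of values from mitochondrially encoded genes was alike (median 5.96% in selected and 6.15% in comparison cells), and that from ribosomal protein genes was 11.4% in selected and 12.8% in comparison cells. The comparison was therefore also made with comparison cells weighted to the spread of genes per cell of the selected cells.

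**Figure D3:**
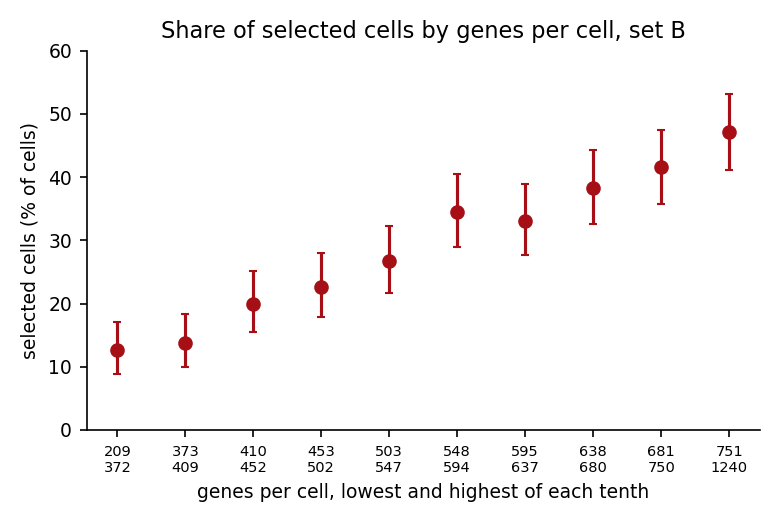
Points give the share (%) of selected cells in each of 10 groups of like size of the cells of set B that met the first 3 limits, ordered by genes per cell, with exact 95% intervals. The share is 12.6% in the lowest group (209 to 372 genes) and 47.1% in the highest (751 to 1240 genes), a rise that the rule favours.

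The genes of the first 3 limits were used by the rule and are given as a description. Apoe, the apolipoprotein that lipid-handling microglia and macrophages make in bulk, had a median of 37 in selected cells, against 89 in all comparison cells and 33 in the comparison cells of set B. The low Apoe value of selected cells is thus shared by the comparison cells of their set. The myeloid sum had a median of 14 in both groups. Cells on both sides of each limit are given as a description. Of cells with at least 2 of the 5 genes, the 154 just inside the homeostatic limit (sum of 2) had Arg1 in 59.1% and a median of 657 genes, and the 59 just outside it (sum of 3) had Arg1 in 59.3% and a median of 674 genes. The 67 cells with a myeloid sum of 8 or 9 and the 21 with 6 or 7 had Arg1 in 68.7% and 57.1%. The limit on Apoe separated 8 cells with 10 to 12 from 4 cells with 7 to 9. The limit on the 5 genes separated 620 cells with 2 of them (Arg1 in 57.6%) from 1528 cells with 1 (Arg1 in 21.3%).

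The markers of monocytes and monocyte-derived macrophages gave a mixed picture and did not settle a name. Genes of that list stood higher in selected cells (S100a4, Ly6c2, S100a11 and F13a1 were called within set B, as given with the list), and some were found far more often in set B as a whole than in the other sets. Among cells that met the first 3 limits, Ly6c2 was above 0 in 11.8% in set B and 1.79% in the other sets, and Tgfbi in 19.9% and 3.46%. Ly6c2, which marks classical mouse monocytes, was above 0 in 14.8% of selected cells of set B (12.4 to 17.4%) and 10.7% of its comparison cells (9.33 to 12.1%). Ccr2, the receptor that draws monocytes into tissue, was above 0 in 5.79% of selected cells (4.28 to 7.62%) and 4.09% of comparison cells (3.26 to 5.06%), and Chil3, a chitinase-like protein of monocytes, in 3.82% and 3.08%. Vim, an intermediate filament gene, was above 0 in 37.9% of selected and 31.0% of comparison cells. The macrophage genes Ms4a7, Ccl7, Ecm1 and Mgst1 had means of 0.0924, 0.0530, 0.0246 and 0.0665 in selected cells, against 0.0631, 0.0323, 0.0237 and 0.0570 in comparison cells. Sparc, a matricellular protein gene that microglia express, was above 0 in 41.3% of selected cells and 40.0% of comparison cells. Sall1, a transcription factor gene of microglia, was above 0 in 3.69% of selected and 3.18% of comparison cells, against 14.8% of microglia-marked cells of the other sets. Of 4 compared border macrophage genes, 2 (F13a1 and Stab1) were called higher in selected cells within set B and 1 (F13a1) after weighting, at median ratios of 1.51 and 1.31. Over all genes 8.06% and 2.17% were called higher, at median ratios of 1.13 and 0.979. F13a1 passed the 5% filter through the selected cells alone, and a list of 4 genes is too short to weigh against these shares. The defining genes of that list were rare, with Mrc1 above 0 in 0.862% and Pf4 in 1.35% of selected cells and Cd163 and Cbr2 at 0 in all of them. Because the defining monocyte genes were found in few selected cells, and at levels that comparison cells of set B came near, the cells are called by the genes that selected them.

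Markers of other cell types were present in both groups, and more often in selected cells, which also held more genes. At least 3 markers of 1 other cell type were above 0 in 488 of the 812 selected cells and in 941 of the 1981 comparison cells of set B. Without such cells 324 selected cells were left, all of them in set B. The 10 oligodendrocyte markers summed to a mean of 11.6 in selected and 10.6 in comparison cells (16.9 in the comparison cells of set A), the 14 T and NK cell markers to 0.393 and 0.309, the 11 dendritic cell markers to 0.224 and 0.160, and the 11 neutrophil markers to 0.597 and 0.458. Mog, of the oligodendrocyte list, and Nkg7, of the T and NK cell list, were called higher in selected cells within set B (at 1.5-fold), though not after weighting by genes per cell. Cd3e was above 0 in 3.33% of selected and 2.83% of comparison cells and Flt3 in 0.739% and 0.707%. No doublet caller was run, and the part of these transcripts in the results was not tested beyond leaving out such cells.

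Genes were compared by the ratio of their means, selected over comparison cells, among genes above 0 in at least 5% of either group, with the 13 genes of the rule left out. A gene was called at 1.5-fold in either direction. Within set B, 2979 genes could be compared, of which 240 (8.06%) were called higher and 10 (0.336%) lower in selected cells, at a median ratio over all genes of 1.13. With comparison cells weighted to the selected cells' genes per cell, 69 of 3175 genes (2.17%) were called higher and 93 (2.93%) lower at a median ratio of 0.979, and 67 of the 240 and all 10 of the 10 were called in both. The direction of the balance thus turned with the number of genes per cell. Of the 240 genes called higher, 172 reached the 5% filter in selected cells alone, and 6 of the 10 called lower reached it in comparison cells alone, so the filter bears on both counts. Over all sets, 296 of 3105 genes (9.53%) were called higher and 88 (2.83%) lower.

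The pooled comparison set selected cells that nearly all came from set B against comparison cells of which 1981 of 7443 did. Among cells that met the first 3 limits, 231 of 2914 genes (7.93%) were called higher and 241 (8.27%) lower in set B than in the other sets together. The 3 comparisons share cells, so their values are given side by side. Results within set B are therefore given first in what follows, and pooled values are given beside them.

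The 15 highest ratios within set B, among genes above 0 in at least 10% of either group and with the same direction over all sets, lay between 1.58 and 1.85. Of these 15, 14 reached the 10% in selected cells alone and only Ifitm1 in both groups, so the filter favours genes that are high in selected cells. S100a4, a calcium-binding protein gene of motile cells, led with a mean of 0.123 in selected cells, against 0.0666 in comparison cells of set B and 0.0621 in those of set A (ratio 1.85). It was above 0 in 11.6% of selected cells (9.46 to 14.0%) and 5.91% of comparison cells (4.91 to 7.04%). In cells of set B with none, 1, 2 and at least 3 of the 5 genes its mean was 0.0526, 0.0791, 0.112 and 0.153. Such series, here and below, are not weighted by genes per cell, whose median rose along them from 484 to 636. Malt1, the paracaspase gene of NF-kB signalling, had means of 0.111 in selected and 0.0606 in comparison cells (1.83; 0.0335 in set A). Riok3, a kinase gene, had 0.115 and 0.0631 (1.81), Ubash3b, a phosphatase gene of receptor signalling, had 0.116 and 0.0641 (1.81), and Fnip1, a partner of folliculin, had 0.121 and 0.0671 (1.80). These 5 genes and Baz2b, a bromodomain protein gene (1.66), were also called after weighting by genes per cell.

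Of the other 9 genes with the highest ratios, none was called after weighting, at weighted ratios of 1.27 for Cmip to 1.48 for Ifitm1. Ifitm1, an interferon-induced membrane protein gene, had means of 0.195 in selected and 0.119 in comparison cells of set B, against 0.0305 in set A. Evl, an actin regulator of the Ena/VASP family, had 0.177 and 0.108, Rreb1, a zinc finger factor, 0.149 and 0.0939, and Ssr2, a subunit of the translocon-associated complex, 0.137 and 0.0863. Adam15, a metalloprotease gene, had 0.128 and 0.0808, and Ubxn4, a gene of endoplasmic reticulum protein degradation, 0.127 and 0.0772. Over all sets, 9 of the 15 genes were called higher.

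Of the 15 lowest ratios, 1 gene was called within set B. Rpl35, a protein gene of the large ribosomal subunit, had a mean of 0.511 in selected and 0.778 in comparison cells (ratio 0.657), was above 0 in 36.3% (33.0 to 39.7%) and 42.7% (40.5 to 44.9%), and had 0.951, 0.624, 0.520 and 0.486 in cells with none, 1, 2 and at least 3 of the 5 genes. After weighting, 7 of the 15 were called lower: Rpl35, Hmgb1, a chromatin protein gene (0.172 and 0.259 in selected and comparison cells), Ptges3, a co-chaperone gene (0.105 and 0.156), Cd180, a Toll-like receptor homologue gene (0.0825 and 0.119), Caprin1, Rpl15 and Itm2c. The other 8, not called in any of these comparisons, include the chemokine gene Ccl4 (0.175 and 0.227, ratio 0.770), the tetraspanin gene Cd81 (1.18 and 1.48, ratio 0.796) and Marcks, a substrate of protein kinase C (0.355 and 0.443, ratio 0.801). Shares of selected and comparison cells above 0 were 15.02% and 13.98% for Ccl4, 63.79% and 62.95% for Cd81 and 28.82% and 31.15% for Marcks. For Ccl4 and Cd81 the lower mean thus did not go with a lower share of cells.

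**Figure D4:**
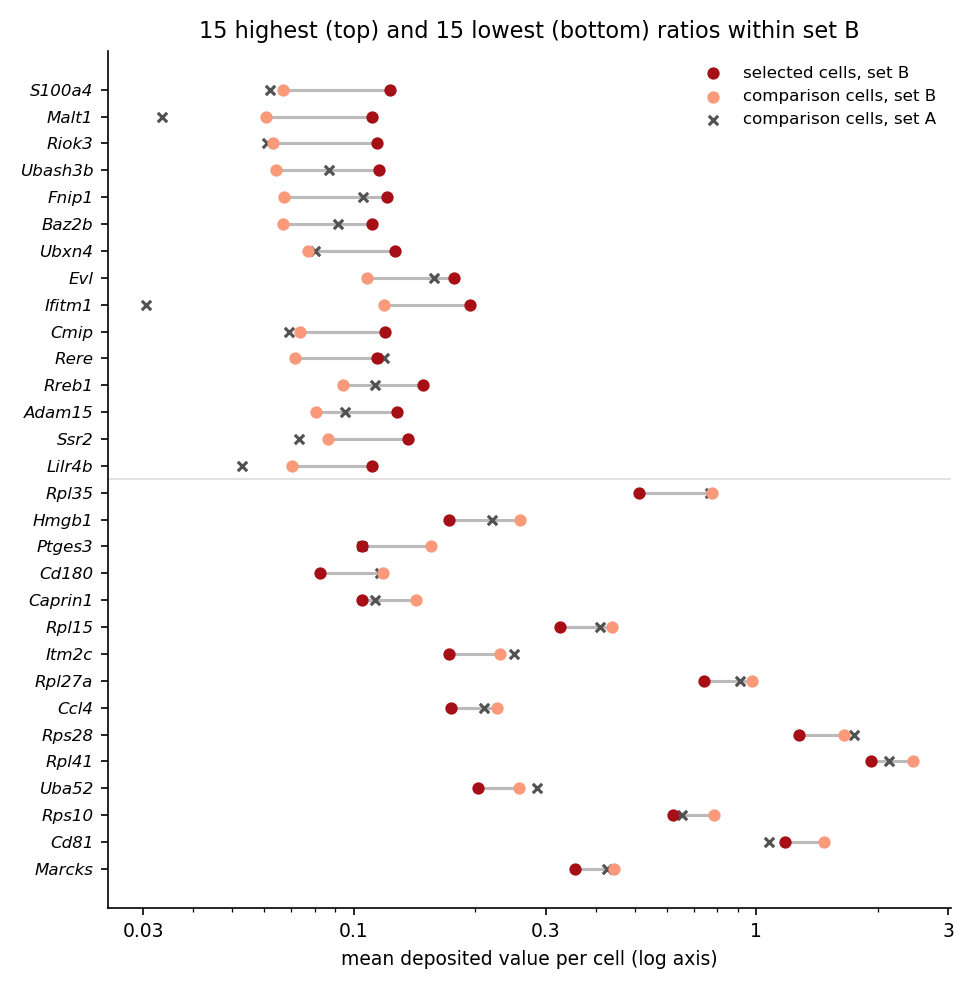
Points give the mean deposited value per cell (log axis) of the 15 genes with the highest and the 15 with the lowest ratio within set B, in selected cells and comparison cells of set B, with crosses for comparison cells of set A. S100a4 has 0.123 in selected cells against 0.0666 in comparison cells of set B and Rpl35 0.511 against 0.778, and for Ifitm1 and Malt1 the comparison cells of set A (0.0305 and 0.0335) lie below both groups of set B.

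Monocyte and monocyte-derived macrophage genes stood a little higher in selected cells. Within set B, 4 of 28 compared genes were called higher and none lower, against 8.06% and 0.336% of all genes, and the median ratio was 1.31, against 1.13. A ratio above 1 was found for 27 of the 28. The called genes were S100a4, Ly6c2 (0.176 in selected and 0.115 in comparison cells), S100a11 (0.347 and 0.229) and F13a1, the clotting factor XIII subunit gene of monocytes and macrophages (0.0862 and 0.0490). F13a1 passed the 5% filter through the selected cells alone. The summed mean of the 39 genes, not weighted by genes per cell, was 11.7, 14.0, 15.5 and 17.0 in cells with none, 1, 2 and at least 3 of the 5 genes. After weighting, 2 genes were called (S100a4 and F13a1) at a median ratio of 1.17, against 0.979 for all genes. Over all sets, 17 of 28 were called higher at a median ratio of 1.68, against 9.53% and 1.12. These include Tgfbi (0.277 in selected cells, against 0.210 in comparison cells of set B and 0.0406 in those of set A), Ly6i and Fn1, the fibronectin gene.

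Genes around the roles of the 5 selecting genes gave few calls. Slc7a2, F13a1 and Clec4e, named below, passed the 5% filter through the selected cells alone, which favours a call. Of 9 compared arginine, polyamine and alternative activation genes, 2 were called higher within set B: Slc7a2, an arginine transporter gene (0.0677 in selected and 0.0404 in comparison cells), and Stab1, a scavenger receptor gene (0.108 and 0.0692). Over all genes 8.06% were called higher, and after weighting none of the 9 was, at a median ratio of 1.08. Ass1, which remakes arginine from citrulline, had 0.0862 and 0.0682, and Nos2, inducible nitric oxide synthase, was above 0 in 1.35% of selected and 1.11% of comparison cells. Of 8 coagulation and fibrinolysis genes, F13a1 alone was called. F7, the initiator protease that activates factor X together with tissue factor, was above 0 in 3.08% of selected and 2.27% of comparison cells, and the tissue factor gene F3 in 0.123% and 0.505%. Of 5 C-type lectin receptor genes, Clec4e (mincle) was called (0.0739 and 0.0404, ratio 1.83, weighted 1.57), whereas its neighbour in function Clec4d had 0.0874 and 0.0666 and Clec7a (dectin-1) 0.597 and 0.517. Nuclear complex IV subunit genes, among them Ndufa4, the relative of AA467197 (0.280 and 0.259), gave no call among 13 genes at a median ratio of 1.04.

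A few genes of the hypoxia, growth factor, transcription factor and iron lists were called within set B, all at low levels. Of those named here, Vegfa, Ndrg1, Nrp2, Bhlhe40 and Hp passed the 5% filter through the selected cells alone, which favours a call. Vegfa, the vascular endothelial growth factor gene, had 0.0628 in selected and 0.0273 in comparison cells (ratio 2.30, weighted 1.97) and 0.0257, 0.0286, 0.0571 and 0.0787 in cells with none, 1, 2 and at least 3 of the 5 genes. Ndrg1, another hypoxia response gene, had 0.0739 and 0.0444 (1.66), but 0.112 in comparison cells of set A. Hif1a, which encodes the hypoxia-inducible factor subunit, had 0.272 and 0.221 and was not called, and 2 of 7 hypoxia genes were called in all, against 8.06% of all genes. Nrp2, a receptor for semaphorins and growth factors, had 0.0899 and 0.0530 (1.70). Bhlhe40, a transcriptional repressor of activated myeloid and T cells, had 0.0751 and 0.0379 (1.98, weighted 1.72), above 0 in 6.77% of selected cells (5.14 to 8.73%) and 3.73% of comparison cells (2.94 to 4.67%). Klf6 (0.0837 and 0.0550, 1.52) was the other called gene of 22 myeloid transcription factor genes, a share near that of all genes, and it was not called after weighting (1.25). Hp, the haptoglobin gene, had 0.0542 and 0.0323 (1.68).

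Of 7 compared MHC class II genes, Ciita, the master activator of the class II genes, was called, with 0.0591 in selected and 0.0242 in comparison cells (ratio 2.44, weighted 2.11) and 0.0204, 0.0277, 0.0537 and 0.0741 in cells with none, 1, 2 and at least 3 of the 5 genes. Ciita was the sole called gene of the 7 within set B, and over all genes 8.06% were called higher there. Ciita passed the 5% filter through the selected cells alone, which favours a call. Its targets were not called: H2-Aa had 1.76 and 1.39, H2-Ab1 1.74 and 1.48, H2-Eb1 1.20 and 1.00 and Cd74 4.60 and 4.09. All 7 had a ratio above 1 and the median was 1.20, against 1.13 over all genes. Ccl17, a chemokine gene and the sole compared dendritic cell marker, had 0.0973 in selected and 0.0550 in comparison cells (1.77) and 0.00948 in comparison cells of set A.

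Inflammatory and interferon genes set the sets apart more than the selected cells within set B. Over all sets, 12 of 16 interferon-stimulated genes, 8 of 13 chemokine genes and 6 of 10 IL-1, TNF and inflammasome genes were called higher, against 9.53% of all genes, and 2 chemokine genes (Ccl3 and Cxcl14) were called lower. Within set B none of 17, 12 and 10 compared genes of these lists was called, at median ratios of 1.09, 1.12 and 1.31, against 1.13 over all genes. Il1b had 0.140 in selected cells, against 0.101 in comparison cells of set B and 0.0184 in those of set A. Ccl2, a monocyte attractant gene, had 0.289 against 0.273 and 0.0348, and Gbp2, a guanylate-binding protein gene induced by interferon gamma, 0.224 against 0.208 and 0.0743. Acod1, which makes itaconate, had 0.137 against 0.105 and 0.0142. Glycolysis genes followed the same pattern, with 5 of 14 called higher over all sets (among them Ldha and Pgk1) and none of 14 within set B, and so did antioxidant genes, with 5 of 13 (Prdx5, Prdx6, Txn1, Sod2 and Gsr) and none of 14.

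DAM genes, named for disease-associated microglia, showed the reverse pattern over sets. Over all sets, 8 of 22 were called lower in selected cells (Lpl, Igf1, Itgax, Cst7, Timp2, Cd9, Apoc1 and Apoc4) and 3 higher (Ccl6, Fabp5 and Lgals3), at a median ratio of 0.779, against 2.83% lower and 9.53% higher over all genes and a median of 1.12. Within set B none of 21 was called lower and 1 higher, at a median of 1.06. Lpl, the lipoprotein lipase gene, had 0.0653 in selected cells and 0.0717 in comparison cells of set B, against 0.373 in those of set A, and Igf1 had 0.0887 and 0.0818, against 0.283. Apoc1, an apolipoprotein gene, turned round: it was called higher in selected cells within set B (0.110 against 0.0666, ratio 1.65, weighted 1.64) and lower over all sets (ratio 0.287), with 0.616 in comparison cells of set A. Homeostatic microglia genes outside the rule gave no call among 17 within set B (median 1.02) and 1 over all sets (Gpr34, lower).

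Proliferation markers gave the sole lower calls among the lists within set B. All 6 compared genes had a ratio below 1, 2 were called, against 0.336% of all genes, and the median was 0.796. Top2a, a topoisomerase gene of dividing cells, had 0.0640 in selected and 0.104 in comparison cells (ratio 0.613), with 0.128, 0.0839, 0.0722 and 0.0417 in cells with none, 1, 2 and at least 3 of the 5 genes. Tuba1b, a tubulin gene, had 0.291 and 0.448 (0.649). After weighting, 5 of 8 were called lower, against 2.93% of all genes. Over all sets Top2a was called higher (1.69), as were Hmgb2 and Ube2c, and comparison cells of set A had 0.0116 for Top2a.

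Genes of the mitochondrial respiratory chain gave no call within set B. None of 33 nuclear complex I subunit genes was called within set B or over all sets (32 genes), at median ratios of 1.08 and 1.18, against 1.13 and 1.12 for all genes. The mitochondrially encoded complex I genes mt-Nd1, mt-Nd2 and mt-Nd4 had 6.40, 6.34 and 6.40 in selected and 5.83, 5.80 and 5.86 in comparison cells of set B, and mt-Nd6, the gene that carries the mutation of Nd6 mice, had 0.0714 and 0.0712. mt-Nd3 was called lower over all sets (ratio 0.0617). It had 0.00246 in selected and 0.00454 in comparison cells of set B, against 0.241 in comparison cells of set A. Of the 25 ribosomal protein genes in the list, which leaves out Rpl35 and Rpl15 given above, none was called, at a median ratio of 0.962 within set B, where 7 of 25 had a ratio above 1. Lysosomal protease and hydrolase genes gave none of 22 within set B, at a median of 1.01. Over all sets Ifi30, a thiol reductase gene of antigen processing, was called higher (1.14 in selected cells, 0.428 in comparison cells of set A, but 1.01 in those of set B), and Lipa, the lysosomal acid lipase gene, was called lower. Of 37 lists with a compared gene, 21 had no call within set B.

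**Figure D5:**
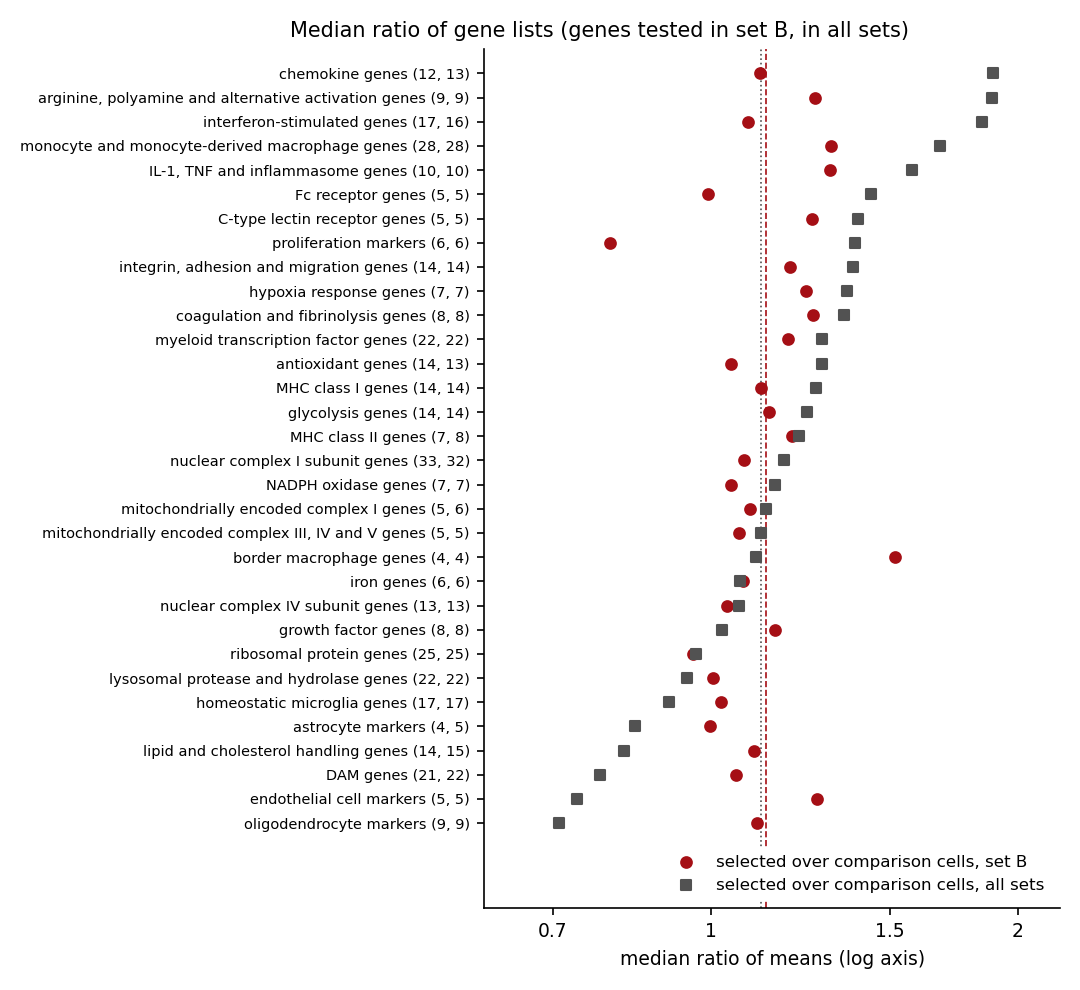
Points give the median ratio of means (log axis), selected over comparison cells, of the gene lists with at least 4 compared genes, within set B (circles) and over all sets (squares), with the number of compared genes in brackets and the medians over all genes as lines (dashed 1.13 within set B, dotted 1.12 over all sets). Chemokine genes lie at 1.12 within set B and 1.89 over all sets, interferon-stimulated genes at 1.09 and 1.85, and DAM genes at 1.06 and 0.779.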

How the data were processed

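Spinal cord cells of 6 libraries were measured with the 10x Genomics single cell 3' v2 kit. Per the labels and the methods, the authors aligned reads to GRCm38 by Cell Ranger 7.1.0 (counting intronic reads too) and used Seurat 4.3.0.1 to merge libraries and filter cells. They deposited 1 table of 18792 genes and 13614 cells, whose whole numbers were treated as a score per gene and cell, because totals per cell lie within 687 to 1578 and how the authors made the deposited score from UMI counts is not given in the sources used here. Depth is unknown, and no count model was run. No column was left unmapped (0), all cells being pooled.

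The selected cells and gene lists were chosen with earlier results of these data known. Cells were taken by the rule as stated, with no further filter and no doublet caller. Of all cells, 12556 meet the filters stated for these data when these are measured on the deposited values. Ratios of means were computed for genes above 0 in at least 5% of either group and called at 1.5-fold, pooled, within set B (no other set had 50 cells of both kinds), and within set B with comparison cells weighted to the selected cells' spread over 10 groups of genes per cell. Named genes are the 13 rule genes, the 15 highest and 15 lowest ratios within set B among genes above 0 in at least 10% of either group with the same pooled direction, and members of 39 lists. A few genes outside this rule, given for set B as a whole, were chosen after their values were seen. The ratio and weighting steps were tested on simulated data. Values scaled to 10000 per cell, other limits and other gene filters were alternatives. Promoter sequences come from RefSeq for GRCm38.p6, and no coordinate was taken from the deposited table. Python 3.11.15, numpy 2.4.6, scipy 1.17.1, pandas 2.3.3 and matplotlib 3.10.9 were used.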

Additional observations from a re-analysis of the deposited data

How the results depend on the processing

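The number of selected cells was 216 with at least 3 of the 5 genes, 373 with a homeostatic sum of 0, 324 without cells holding 3 markers of another cell type, 479 without Arg1 in the rule and 415 without AA467197. In each of these 5 cases at least 95.6% of them were in set B. Counts of called genes moved with most settings and are given as higher and lower over all sets, then higher and lower within set B. They were 864, 151, 758 and 58 with at least 3 genes, 1113, 751, 1566 and 315 with a filter of 1% of cells, 120, 32, 36 and 3 with 10%, 3160, 2046, 3909 and 1252 with no filter, 68, 26, 12 and 0 at 2-fold, and 188, 145, 69 and 93 with weighting by genes per cell. With a homeostatic sum of 0, 500 genes were higher over all sets and 455 higher and 39 lower within set B. Without cells holding markers of another cell type these were 500, 392 and 99. With comparison cells holding none of the 5 genes, 520 were higher and 36 lower within set B, and with scaled values 113 and 25. Genes lower within set B numbered 18 with no limit on Apoe, 33 with a myeloid sum of at least 12, 26 without Arg1 and 29 without AA467197. Without set B, 24 selected cells were left, and 1824 genes were higher and 612 lower over all sets. Within-set ratios with equal weight rest on set B alone and gave 10 lower genes. Where fewer cells or genes enter, the construction of the alternative changes the count, and otherwise the cause was not tested. Of 20 alternatives, 16 can change a ratio within set B. Of the 480 values of the 30 leading genes under these, 477 kept their direction and stayed within 1.5 times the ratio, 1 moved (Cd180, 0.366) and 2 turned. Calls were lost more often: S100a4 kept its call under 16 of 16, Malt1, Riok3 and Ubash3b under 15, Rere and Rpl35 under 8, and Ifitm1, Rreb1 and Lilr4b under 9. With at least 3 of the 5 genes, Fnip1 had a ratio of 0.948 and Ccl4 of 1.15. No paired analysis was possible because cells could not be tied to libraries. The fits planned between genotypes, with a replicate block, without each replicate and with DESeq2, were not run.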

Other observations

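The sets differed in genes beyond those described above, some in set B, which held nearly all selected cells, and some in set A. These genes were chosen after their values were seen, and the values are given for comparison cells unless another group is named. mt-Nd3 was above 0 in 0.246% of selected cells and 0.454% of comparison cells of set B and 0.217% of comparison cells of set F, against 19.5% in set A and 15.4% in set C. Gm28438 showed the opposite order, above 0 in 11.1% of selected cells and 15.7% of comparison cells of set B and 28.4% in set F, against 0% in set A and 0.0845% in set C. Sets B and F thus stood on 1 side and sets A and C on the other for both genes. Sets D and E, with few comparison cells, are left out. Sets B and F belong to the sum of cells that equals the paper's Nd6 count, and sets A and C to its WT count. The 440 microglia-marked cells of set B had mt-Nd3 in 0.455% and Gm28438 in 25.2%. Those of the other sets together had mt-Nd3 in 22.9% and Gm28438 in 25.9%. This pool joins sets A, C and F with sets D and E. Because it holds sets of both sides, it cannot show whether the split between sets held in microglia-marked cells. The cause was not tested.

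Igkc and Ighg1, immunoglobulin genes of plasma cells, were above 0 in 1.48% and 0% of selected cells and 0.858% and 0% of comparison cells of set B, against 32.4% and 20.3% in set A, 1.35% and 0.422% in set C and 0.217% and 0% in set F. Hbb-bs, a globin gene of red cells, was above 0 in 6.53% of selected and 5.91% of comparison cells of set B, against 31.2 to 37.9% in sets A, C and F. Cd274, which encodes the checkpoint ligand PD-L1, was above 0 in 13.2% of selected and 8.78% of comparison cells of set B, against 4.24% in set A, and was called higher within set B (means of 0.150 and 0.0954, ratio 1.57), though neither after weighting by genes per cell (1.39) nor on scaled values (1.48).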
